A study of Homo sapiens with 9 samples.

Results

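The genes described are 35 genes of MYC, of polyamine metabolism and of ribosome biogenesis, out of 58219 gene identifiers counted in each sample. They were taken by matching each Ensembl identifier, without its version, to a list of gene symbols, and all 35 symbols were found. The list has a MYC and polyamine group of 10 genes, a group of 20 nucleolar processing factors and a group of 5 RNA polymerase I genes. After a filter on low counts 34 of them could be tested, as part of 14617 tested genes, and the gene that did not pass was MYCN.

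Polyadenylated RNA was sequenced from PLC/PRF/5, an established human hepatoma line, made to stably express the Src family tyrosine kinase YES. YES carried the gatekeeper mutation T348I in 5 samples and was wild type (WT) in 4 samples, and every sample of both groups had received 100 nM dasatinib, a kinase inhibitor that acts on ABL and the Src family. A gatekeeper residue lies in the drug pocket of a kinase, and mutations there are known to weaken dasatinib binding. The comparison is therefore between mutant and wild-type YES under the drug, and no untreated sample was analysed here. The labels call each a stable line and say neither which promoter drives YES nor whether a line is 1 clone. Sample titles spell the drug as dasatinib (3 T348I and 3 WT samples) or as Dasa (2 T348I samples and 1 WT sample), which gives a dasatinib set and a Dasa set; what the spelling marks is not known.

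MYC is a transcription factor that binds DNA as a dimer with MAX, mainly at the sequence CACGTG, the canonical E-box, and raises genes of cell growth, while MXD proteins compete for MAX and act as repressors. Polyamines are small cations needed for growth: ODC1 makes putrescine from ornithine, AMD1 supplies the aminopropyl donor, SRM and SMS extend putrescine to spermidine and spermine, SAT1 acetylates them for export or breakdown, and antizyme, encoded by OAZ1, sends ODC1 to the proteasome. In the nucleolus RNA polymerase I copies ribosomal DNA, and the long precursor is modified, cut and packed into the large and small subunits by several classes of factors. MYC is known to raise these factors in many cell types, and in liver it is known for its part in regeneration and in hepatocellular carcinoma.

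The samples held 10381142 to 15799059 gene reads in the T348I group and 10464731 to 14118614 in the WT group. YES1 stood at 553 to 605 CPM (reads scaled to a common library size) in the T348I samples of the dasatinib set and at 974 and 1032 CPM in those of the Dasa set, against 341 to 368 CPM in the WT samples, and the log2 fold was 0.94 (edgeR adjusted p = 4.84e-08). Reads do not tell introduced from endogenous YES1. Hepatoma markers were present, with APOB at 3103 ± 317 CPM in T348I samples and 3175 ± 1431 CPM in WT samples (SD, n = 5 and 4), whereas ALB, low in both, stood at 2.49 ± 0.896 and 3.95 ± 0.478 CPM and TTR was near 0 in both groups. Of the hepatoma list KRT18 (log2 fold 1.22) and KRT8 (0.94) were higher in T348I samples, while TF (-0.76), APOA2 (-0.70), ALB (-0.63), AFP (-0.57), FGB (-0.22) and GPC3 (-0.18) were lower and SERPINA1 and APOB were not called (edgeR). The summed level of the list was 10760 to 12146 CPM in T348I samples and 8773 to 11452 CPM in WT samples, and its part in the results below was not tested. The leukocyte markers PTPRC and CD3E were near 0 as well, and LYZ, listed among them, stood at 1140 ± 303 and 1155 ± 134 CPM. The Dasa set stood apart: transcripts of the mitochondrial genome took 15.2% to 17.0% of its gene reads, against 7.38% to 9.44% in the dasatinib set. A fit that left these transcripts out changed no call among the 34 genes. That fit kept a term for set, as the main fit did, so it cannot show what part this difference had.

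Almost the whole set was higher in T348I samples. Of the 34 tested genes, 30 rose, MXD1 fell, and OAZ1, GNL3 and RRN3 did not pass the test (edgeR quasi-likelihood test, adjusted over all tested genes, threshold 0.05). Over all tested genes, 42.5% were called, 20.7% higher and 21.8% lower. The median log2 fold of the 34 was 0.21, beside a median of -0.0077 over all tested genes, whose middle 50% lay between -0.18 and 0.15. Most of these differences were small, and only SAT1 and ODC1 differed by more than 1.5-fold. In 17 of the 34 genes the lowest T348I sample lay above the highest WT sample, a separation in either direction that 19.6% of all tested genes showed. In a bulk sample, less RNA per cell and fewer cells of a kind cannot be told apart, and since nothing in the labels says that samples came from separate cultures, the p-values measure only how far these samples scatter, and that scatter may be technical.

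The summed level of the 35 genes ranged from 7909 to 8639 CPM in T348I samples and from 6309 to 6675 CPM in WT samples, so the groups did not overlap. ODC1 and SAT1 together made up 1482 to 1995 CPM in T348I samples and 753 to 915 CPM in WT samples. Without them the sum of the other 33 still lay at 6419 to 6644 CPM in T348I samples and at 5394 to 5908 CPM in WT samples. Per kilobase of exon the most abundant transcripts were NPM1, with 361 and 340 RPKM (CPM per kilobase) in T348I and WT samples, and ODC1, with 396 and 212 RPKM.

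**Figure D1:**
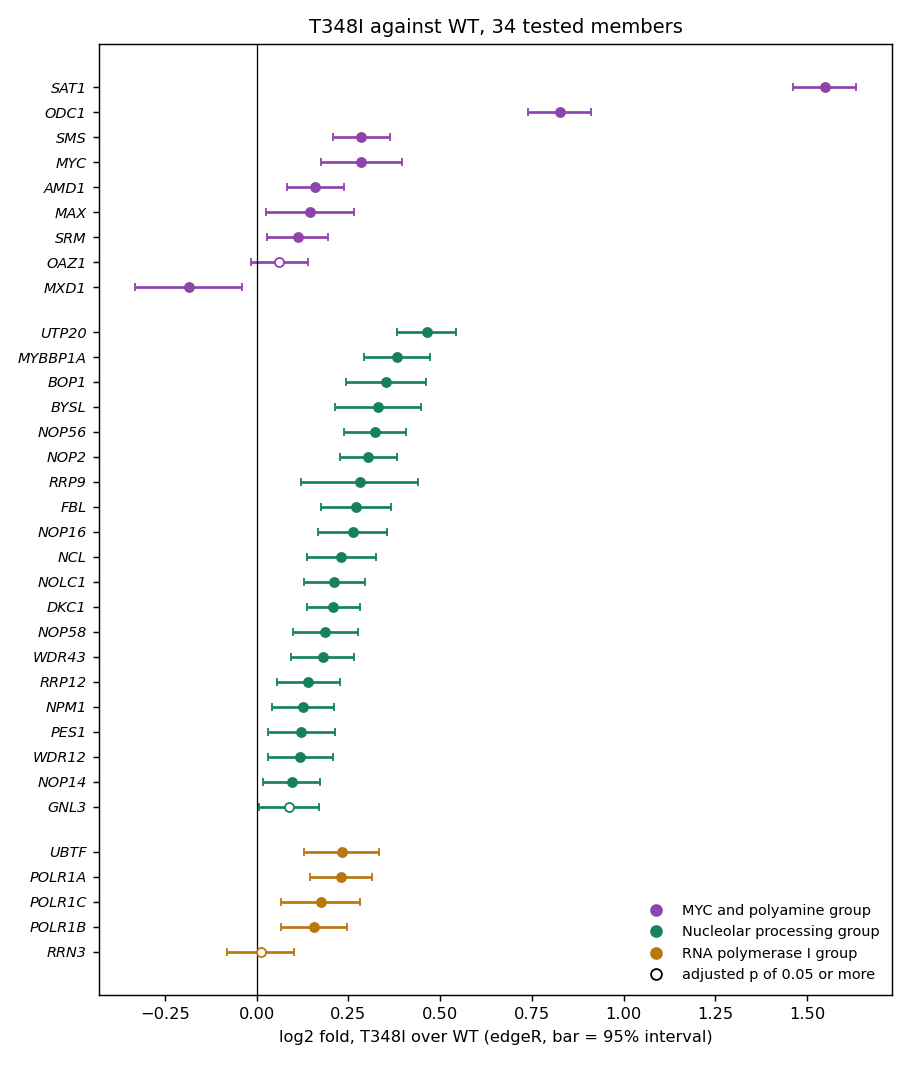
Log2 fold of T348I over WT for the 34 tested genes, 1 row per gene, ordered by fold within each group, with 95% intervals from the edgeR fit and open symbols for genes that did not pass the test. SAT1 (1.55) and ODC1 (0.83) stand far right of the rest, which lie between -0.18 and 0.46.

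In the MYC and polyamine group, 7 of the 9 tested genes rose, 1 fell and 1 was not called, with a median log2 fold of 0.16. Over all tested genes, 20.7% were called higher and 21.8% lower. MYC itself (ENSG00000136997) stood at 93.9, 92.4 and 96.9 CPM in the T348I samples of the dasatinib set and at 105 and 107 CPM in those of the Dasa set, against 81.9, 83.6 and 84.9 CPM in the WT samples of the dasatinib set and 73.4 CPM in the WT sample of the Dasa set. Every T348I sample lay above every WT sample. MYC averaged 99.1 ± 6.67 CPM in T348I samples and 80.9 ± 5.21 CPM in WT samples (SD, n = 5 and 4), and rose by 0.29 on the log2 scale (SE 0.0528, edgeR adjusted p = 0.000222). Without WT Dasa replicate 1, the lowest of all samples for MYC, the log2 fold was 0.18 and still passed. That fit leaves the Dasa set with no WT sample, so its folds, here and below, rest on the dasatinib set alone. It therefore does not single out the part of that 1 sample. The same 2 T348I samples had the highest MYC and the highest YES1, and whether the level of YES1 has a part in this was not tested.

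MYCN, the paralog of MYC that is known from neural tumours, was not detectable at this depth: 3 reads fell on it among 67180273 gene reads of the 5 T348I samples and 0 among 52222928 gene reads of the 4 WT samples. The T348I reads fell 1 each on dasatinib replicates 2 and 3 and Dasa replicate 2, and the other samples held 0. A group count of 0 allows up to 3 reads, so no fold is given. The dimer partner MAX (chromosome 14, 65006174 to 65102695 on GRCh38, as are all positions below) stood at 38.6, 40.5, 41.3, 36.2 and 30.1 CPM in T348I samples, the last 2 values being the Dasa set, against 34.3, 37.3, 36.7 and 30.7 CPM in WT samples, the last value being the Dasa set. The groups overlapped across the sets but not within the dasatinib set. The log2 fold of MAX was 0.15 (SE 0.0575, edgeR adjusted p = 0.0490), and the call was lost in 6 of the 9 fits that left out a sample, with log2 folds of 0.12 to 0.16: those without T348I dasatinib replicate 2 or 3, T348I Dasa replicate 1, or WT dasatinib replicate 1, 2 or 3.

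MXD1, a repressor that competes with MYC for MAX (chromosome 2, 69897688 to 69942945), was the 1 gene that fell. It stood at 21.6, 22.4 and 20.3 CPM in T348I samples of the dasatinib set and 19.1 and 19.0 CPM in those of the Dasa set, against 26.2, 20.8 and 24.0 CPM in WT samples of the dasatinib set and 22.9 CPM in the WT sample of the Dasa set. WT dasatinib replicate 2 lay within the T348I range, so the groups overlapped. The log2 fold was -0.18 (SE 0.0695, edgeR adjusted p = 0.0383). The call was lost in 7 of the 9 fits that left out a sample (log2 fold -0.19 to -0.14), which were all but those without T348I dasatinib replicate 2 or WT dasatinib replicate 2, and DESeq2 did not make it. MXD1 also shares exon sequence on the same strand with SNRNP27 in GENCODE 29.

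Polyamine genes held the 2 largest differences. SAT1, whose product acetylates spermidine and spermine (chromosome X, 23783173 to 23786226), stood at 492, 473 and 464 CPM in T348I samples of the dasatinib set and 553 and 538 CPM in those of the Dasa set, against 174, 166 and 166 CPM in WT samples of the dasatinib set and 172 CPM in the WT sample of the Dasa set. The lowest T348I sample thus held far more than the highest WT sample, and the WT samples of both sets were alike. SAT1 averaged 504 ± 39.6 CPM in T348I samples and 170 ± 4.10 CPM in WT samples (SD, n = 5 and 4), a log2 fold of 1.55 (SE 0.0414, edgeR adjusted p = 4.12e-16), or 2.92-fold.

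ODC1, the first enzyme of polyamine synthesis (chromosome 2, 10439968 to 10448504), stood at 1007, 1009 and 1023 CPM in T348I samples of the dasatinib set and 1388 and 1457 CPM in those of the Dasa set, against 587, 601 and 587 CPM in WT samples of the dasatinib set and 743 CPM in the WT sample of the Dasa set. Both groups were higher in the Dasa set, and T348I lay above WT in each set. The mean was 1177 ± 225.8 CPM in T348I samples and 629 ± 76.0 CPM in WT samples (SD, n = 5 and 4), and the log2 fold of 0.83 had an edgeR adjusted p of 5.36e-12 (SE 0.0412).

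The other enzymes differed less. SMS, spermine synthase (chromosome X, 21940573 to 21994835), held 309.6 to 347.7 CPM in T348I samples and 241 to 291 CPM in WT samples without overlap, and rose by 0.29 on the log2 scale (SE 0.0376, edgeR adjusted p = 5.16e-06). AMD1, S-adenosylmethionine decarboxylase, held 293 to 322 CPM in T348I samples and 249.8 to 298 CPM in WT samples, and its log2 fold was 0.16 (edgeR adjusted p = 0.00171). SRM, spermidine synthase, held 190.0 to 199.8 CPM in T348I samples and 166 to 190.3 CPM in WT samples (log2 fold 0.11, edgeR adjusted p = 0.0285). The call of SRM was lost without WT Dasa replicate 1 (0.06), T348I dasatinib replicate 2 or WT dasatinib replicate 2, whose folds ran up to 0.11. OAZ1, the antizyme gene, held 222 to 230 CPM in T348I samples and 204 to 229 CPM in WT samples and did not pass the test (log2 fold 0.06, 95% interval -0.02 to 0.14). AMD1 has 5 pseudogenes named after it in GENCODE 29 and SRM has 2, and reads that also match such copies count for no gene.

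**Figure D2:**
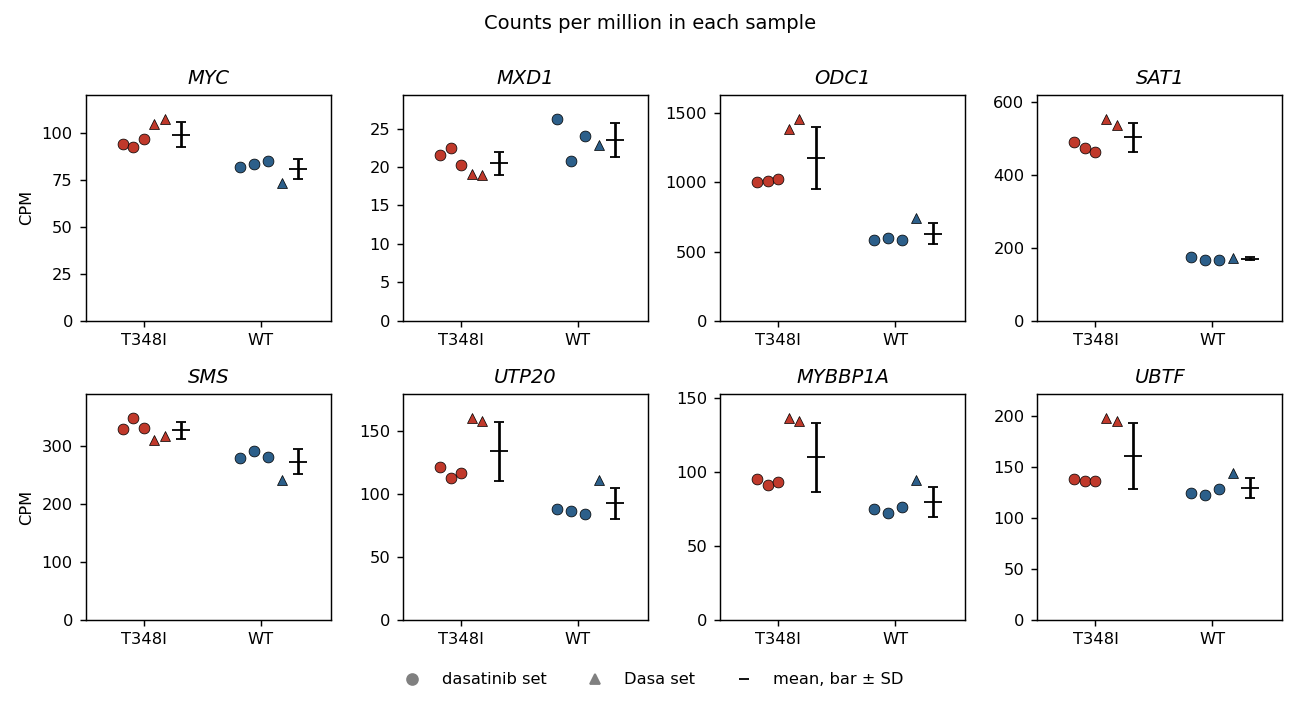
CPM in each sample for 8 of the genes, T348I left and WT right, with circles for the dasatinib set, triangles for the Dasa set and the group mean with its SD beside them (n = 5 and 4). SAT1 lies at 464 to 553 CPM in T348I samples and at 166 to 174 CPM in WT samples, while MXD1 overlaps between the groups.

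The promoters of this group were read for the E-box. RefSeq windows (GRCh38.p14) of 250 bases before to 50 after the gene start were matched for 30 of the 35 genes, and BOP1, MYC, NOLC1, NOP58 and RRP12 had no entry. CACGTG, which reads the same on both strands, was found in 1 of the 9 windows of the MYC and polyamine group, against 10.2% of the windows of tested genes and 7.43% of all 27305 windows. The match was in SRM, 199 bases before the start (chr1:11060200-11060229, minus strand). ODC1 held no CACGTG in its window but held the variant CACGCG, searched on both strands, in a pair of overlapping matches on opposite strands 209 and 207 bases before the start (chr2:10448519-10448548, minus strand), a variant present in 18.5% of the windows of tested genes. Both stretches are shown because they belong to the synthesis enzymes with the smallest and the largest rise, with matched letters in capitals.
SRM: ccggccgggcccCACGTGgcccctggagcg
ODC1: gggggcgggggcCACGCGTGgggcaggcgg
SAT1, with the largest fold, held neither motif in this window. A match describes letters in a window and not a bound site.

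Of the 20 nucleolar processing factors, 19 rose, 0 fell and GNL3 was not called, beside 20.7% of all tested genes called higher. The log2 folds of the 20 ran from 0.09 to 0.46 with a median of 0.22. In 12 of the 20 every T348I sample lay above every WT sample, a separation in either direction that 19.6% of all tested genes showed. The summed level of the 20 was 4698 to 4886 CPM in T348I samples and 3933 to 4328 CPM in WT samples. Without the set term in the model 9 of the 20 were called, where 1234 of all genes were called higher and 1116 lower. With a fold minimum of 1.2 in the test 2 were called, where the counts over all genes were 879 and 850.

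Small subunit factors had both the largest and some of the smallest folds. UTP20, a scaffold protein of the small subunit processome (chromosome 12, 101280109 to 101386616), stood at 121, 113 and 117 CPM in T348I samples of the dasatinib set and 160 and 158 CPM in those of the Dasa set, against 88.0, 86.6 and 84.3 CPM in WT samples of the dasatinib set and 111 CPM in the WT sample of the Dasa set. Every T348I sample exceeded every WT sample. UTP20 had a log2 fold of 0.46 (SE 0.0383, edgeR adjusted p = 1.09e-08), and it was, with ODC1 and SAT1, among the genes called under each of the 19 alternatives tried.

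BYSL, bystin, which is needed to mature the small subunit (chromosome 6, 41921188 to 41933046), stood at 43.1, 42.7 and 46.1 CPM in T348I samples of the dasatinib set and 41.7 and 44.4 CPM in those of the Dasa set, against 36.8, 36.5 and 37.4 CPM in WT samples of the dasatinib set and 29.9 CPM in the WT sample of the Dasa set. The T348I samples were alike across sets and the WT sample of the Dasa set was the lowest of all. BYSL had a log2 fold of 0.33 (SE 0.0558, edgeR adjusted p = 8.61e-05). RRP9, a protein of the U3 small nucleolar RNA particle, rose by 0.28 (edgeR adjusted p = 0.00554), but by 0.12 and without a call when WT Dasa replicate 1 was left out. WDR43, a processome protein, rose by 0.18. RRP12 (0.14) and NOP14 (0.10) rose as well, but RRP12 was not called without WT Dasa replicate 1 (0.09), and NOP14 was not called in 7 of the 9 fits that left out a sample (0.07 to 0.10), which were all but those without T348I or WT dasatinib replicate 1.

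Among the enzymes and particles that modify ribosomal RNA, NOP56, a core protein of box C/D particles (chromosome 20, 2652145 to 2658393), stood at 162, 162 and 167 CPM in T348I samples of the dasatinib set and 236 and 233 CPM in those of the Dasa set, against 140.0, 138 and 130.3 CPM in WT samples of the dasatinib set and 173 CPM in the WT sample of the Dasa set. The groups did not overlap within either set, but the WT sample of the Dasa set lay above the T348I samples of the dasatinib set. NOP56 had a log2 fold of 0.32 (SE 0.0403, edgeR adjusted p = 2.83e-06), and it was 0.40 and not called without the set term. FBL, fibrillarin, the methyltransferase of the same particle, rose by 0.27, and NOP58, its other core protein, by 0.19. DKC1, dyskerin, the pseudouridine synthase of box H/ACA particles, rose by 0.21, and NOLC1, which binds both kinds of particle, by 0.21.

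NOP2, a methyltransferase of the large subunit ribosomal RNA (chromosome 12, 6556863 to 6568691), stood at 174, 163 and 163 CPM in T348I samples of the dasatinib set and 195 and 199 CPM in those of the Dasa set, against 142, 136 and 134 CPM in WT samples of the dasatinib set and 154 CPM in the WT sample of the Dasa set. The lowest T348I sample lay above the highest WT sample. NOP2 thus had a log2 fold of 0.30 (SE 0.0372, edgeR adjusted p = 2.06e-06). NOP2 shares exon sequence on the same strand with an unnamed gene in GENCODE 29.

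Large subunit assembly factors rose as well. BOP1 (ENSG00000261236), which forms a complex with PES1 and WDR12, stood at 55.5, 56.3 and 59.4 CPM in T348I samples of the dasatinib set and 69.4 and 65.9 CPM in those of the Dasa set, against 46.2, 44.4 and 49.8 CPM in WT samples of the dasatinib set and 47.6 CPM in the WT sample of the Dasa set. The WT samples were alike across sets and all lay below the T348I samples. Its log2 fold was 0.35 (SE 0.0522, edgeR adjusted p = 1.97e-05). The partners in the complex differed less, PES1 by 0.12 and WDR12 by 0.12 on the log2 scale. Neither was called without WT Dasa replicate 1 (0.07 each) or without T348I dasatinib replicate 3, PES1 also not without WT dasatinib replicate 1, and WDR12 also not without T348I dasatinib replicate 1 or T348I Dasa replicate 1, with folds up to 0.12. NOP16, another large subunit factor, rose by 0.26 and varied little: it held 47.0 to 47.9 CPM in T348I samples and 38.6 to 41.5 CPM in WT samples.

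The remaining nucleolar proteins have broader roles. MYBBP1A, a nucleolar protein that binds the transcription factor MYB (chromosome 17, 4538897 to 4555631), stood at 94.7, 90.8 and 92.9 CPM in T348I samples of the dasatinib set and 136 and 134 CPM in those of the Dasa set, against 75.1, 72.0 and 76.1 CPM in WT samples of the dasatinib set and 94.1 CPM in the WT sample of the Dasa set. The log2 fold was 0.38 (SE 0.0433, edgeR adjusted p = 7.59e-07), and the groups were separate within each set but not across them. NCL, nucleolin, an abundant RNA-binding protein of the nucleolus, held 837 to 1012 CPM in T348I samples and 753 to 795 CPM in WT samples and rose by 0.23. NPM1, nucleophosmin, a nucleolar chaperone, held 1253 to 1491 CPM in T348I samples and 1121 to 1415 CPM in WT samples, with a log2 fold of 0.13 that was not called without WT dasatinib replicate 3 (0.12) and is uncertain, since 45 pseudogenes carry its name. GNL3, nucleostemin, held 139.9 to 152 CPM in T348I samples and 130.4 to 142 CPM in WT samples, a log2 fold of 0.09 (95% interval 0.0058 to 0.17) that did not pass (edgeR adjusted p = 0.0792) except without T348I dasatinib replicate 1 (0.11), and the fold was 0.04 without WT Dasa replicate 1.

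Many promoters of the nucleolar group held the E-box. CACGTG was found in 9 of the 16 matched windows, or 56.3%, against 10.2% of the windows of tested genes, and each of the 9 held it once. All 9 matches began between 25 bases before and 50 bases after the RefSeq start, where 2.61% of the windows of tested genes held a match. That interval lies close around the positions found and leaves out the fullest bin of all tested genes, -50 to -25. The contrast therefore only describes these matches. These genes were listed together with MYC, which is known to raise such factors, so the share is not independent of how they were chosen. The stretch around each match is printed because the 9 genes share the motif. The order is that of position, with the motif in capitals and its first base counted from the start as +1.
UTP20: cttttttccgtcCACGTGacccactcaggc
RRP9: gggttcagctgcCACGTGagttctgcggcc
WDR43: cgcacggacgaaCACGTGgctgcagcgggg
FBL: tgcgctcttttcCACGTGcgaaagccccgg
PES1: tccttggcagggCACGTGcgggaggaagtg
NOP14: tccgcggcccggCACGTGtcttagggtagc
MYBBP1A: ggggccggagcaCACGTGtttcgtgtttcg
BYSL: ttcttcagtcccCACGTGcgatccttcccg
NOP2: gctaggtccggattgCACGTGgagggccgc
The motif began at -10 in UTP20 (chr12:101280083-101280112, plus strand) and at -5 in RRP9 (chr3:51941892-51941921, minus strand). It began at 4 in WDR43 (chr2:28894658-28894687, plus strand), at 7 in FBL (chr19:39846356-39846385, minus strand), at 14 in PES1 (chr22:30591880-30591909, minus strand) and at 16 in NOP14 (chr4:2963374-2963403, minus strand). It began at 28 in MYBBP1A (chr17:4555340-4555369, minus strand), at 29 in BYSL (chr6:41921515-41921544, plus strand) and at 36 in NOP2 (chr12:6568242-6568271, minus strand).

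The flanks of these motifs differ from gene to gene. The log2 folds of the 9 genes with the motif ran from 0.10 (NOP14) to 0.46 (UTP20) with a median of 0.28, and those of the 7 matched genes without it ran from 0.09 (GNL3) to 0.32 (NOP56) with a median of 0.21. The ranges overlapped almost fully. Among the wider lists described further on, CACGTG was in 14 of 38 windows of small subunit factors (36.8%), 10 of 34 of large subunit factors (29.4%), 6 of 17 of MYC targets outside ribosome biogenesis (35.3%) and 3 of 9 of the MYC network (33.3%). It was in 1 of 10 windows of box C/D and H/ACA genes, 1 of 10 of further polyamine genes and 1 of 13 of further RNA polymerase I genes. None of these shares was tested. No binding was measured in these data.

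**Figure D3:**
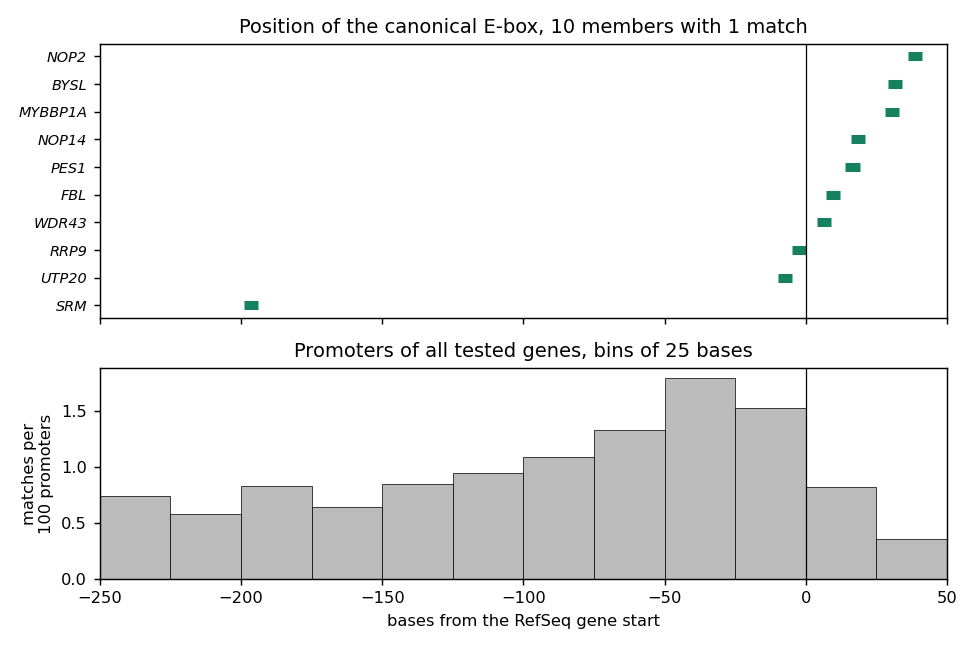
Position of the canonical E-box in the 10 promoters that held it, in bases from the RefSeq gene start (above), and matches per 100 promoters of all tested genes in bins of 25 bases (below). The 9 nucleolar genes have it between -10 and 36 and SRM at -199, whereas over all tested genes the highest bin is the one from -50 to -25.

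Of the 5 RNA polymerase I genes 4 rose and RRN3 was not called, with a median log2 fold of 0.17. Of all tested genes 20.7% were called higher. POLR1A, the largest subunit (chromosome 2, 86020216 to 86106155), stood at 140.3, 128 and 136 CPM in T348I samples of the dasatinib set and 166 and 176 CPM in those of the Dasa set, against 109.9, 119 and 114 CPM in WT samples of the dasatinib set and 147 CPM in the WT sample of the Dasa set. T348I lay above WT in each set, and the WT sample of the Dasa set lay within the range of the T348I samples. The log2 fold was 0.23 (SE 0.0398, edgeR adjusted p = 0.000112). POLR1B, the second largest subunit (chromosome 2, 112541915 to 112577150), stood at 87.0, 97.0, 92.5, 89.7 and 88.8 CPM in T348I samples, the last 2 being the Dasa set, and at 83.2, 86.2, 86.8 and 74.96 CPM in WT samples, the last being the Dasa set. It was the 1 gene of the 5 in which no samples of the groups overlapped, by a margin of under 1 CPM, beside 19.6% of all tested genes. The log2 fold of POLR1B was 0.16 (SE 0.0428, edgeR adjusted p = 0.00609).

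POLR1C (ENSG00000171453), a subunit shared with RNA polymerase III, stood at 39.4, 44.4, 40.7, 47.1 and 46.6 CPM in T348I samples, the last 2 being the Dasa set, and at 36.5, 39.9, 36.2 and 40.4 CPM in WT samples, the last being the Dasa set. The groups overlapped, the log2 fold was 0.17 (SE 0.0516, edgeR adjusted p = 0.00999), and the call was lost without T348I dasatinib replicate 2 (0.14). UBTF, which binds ribosomal DNA and helps to open it for transcription (chromosome 17, 44205033 to 44221626), stood at 138, 136 and 136 CPM in T348I samples of the dasatinib set and 197 and 195 CPM in those of the Dasa set, against 124, 122 and 128 CPM in WT samples of the dasatinib set and 144 CPM in the WT sample of the Dasa set. The 2 T348I samples of the Dasa set stood out. The log2 fold of UBTF was 0.23 (SE 0.0484, edgeR adjusted p = 0.000705), and 0.14 without WT Dasa replicate 1.

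RRN3, which recruits the polymerase to the ribosomal DNA promoter (chromosome 16, 15060022 to 15094317), went with the set and not with the genotype. It stood at 70.9, 72.5 and 72.6 CPM in T348I samples of the dasatinib set and 62.9 and 63.0 CPM in those of the Dasa set, against 75.6, 73.5 and 74.5 CPM in WT samples of the dasatinib set and 56.5 CPM in the WT sample of the Dasa set. T348I samples lay below WT samples in the dasatinib set and above the WT sample in the Dasa set. The log2 fold over both sets was 0.01 (95% interval -0.08 to 0.10, edgeR adjusted p = 0.866), and it was -0.04 without WT Dasa replicate 1. RRN3 has 2 named pseudogenes in GENCODE 29. None of the RNA polymerase I genes was called without the set term in the model, where 1234 of all genes were called higher and 1116 lower.

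In the promoters of the 5 RNA polymerase I genes CACGTG was found in 0 windows and CACGCG, counted on both strands, in 4, against 10.2% and 18.5% of the windows of tested genes. The variant was in 3 of the 16 windows of the nucleolar group. These stretches are printed for comparison with those of the nucleolar group, with the variant or its reverse complement, CGCGTG, in capitals.
POLR1A: cgcacgttgaatCGCGTGgtgactccgggc
POLR1C: gctactaggacgCACGCGcgagatagaacc
UBTF: ggcggagcgcggCGCGTGgggctcgccatt
RRN3: atacgccctcccCACGCGgggccgctgatt
The variant began at 16 in POLR1A (chr2:86105854-86105883, minus strand), -21 in POLR1C (chr6:43517056-43517085, plus strand), -15 in UBTF (chr17:44220880-44220909, minus strand) and -19 in RRN3 (chr16:15094337-15094366, minus strand), which held another at 18. RRN3, the gene of the group with the smallest fold, thus held the variant as well.

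For most of the genes the log2 fold of T348I over WT was higher in the Dasa set than in the dasatinib set. The median log2 fold was 0.30 in the Dasa set and 0.16 in the dasatinib set, and 32 of the 34 genes were above WT in both, the others being MXD1 and RRN3. All folds of the Dasa set share its 1 WT sample, so they are not independent of each other. The same medians and count are not given over all tested genes, so these values do not set the 34 genes apart. The interaction test, in which the only WT sample of the Dasa set is assumed to scatter as the others do, called 3 genes, all larger in the Dasa set, where 7.33% of all tested genes were called in either direction. They were MYC (0.53 in the Dasa set, 0.18 in the dasatinib set, edgeR interaction adjusted p = 0.00210), RRP9 (0.65 and 0.12, edgeR adjusted p = 0.00248) and UBTF (0.45 and 0.13, edgeR adjusted p = 0.00162). YES1 was also higher in the T348I samples of the Dasa set, as were mitochondrial transcripts in its samples, and the part of either in these differences was not tested. In the dasatinib set alone, with 3 samples in each group, 24 of the 34 genes were higher and 0 lower, where 2619 of all genes were called higher and 2422 lower. There 27 of the 34 showed no overlap between the groups, against 44.7% of all tested genes.

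**Figure D4:**
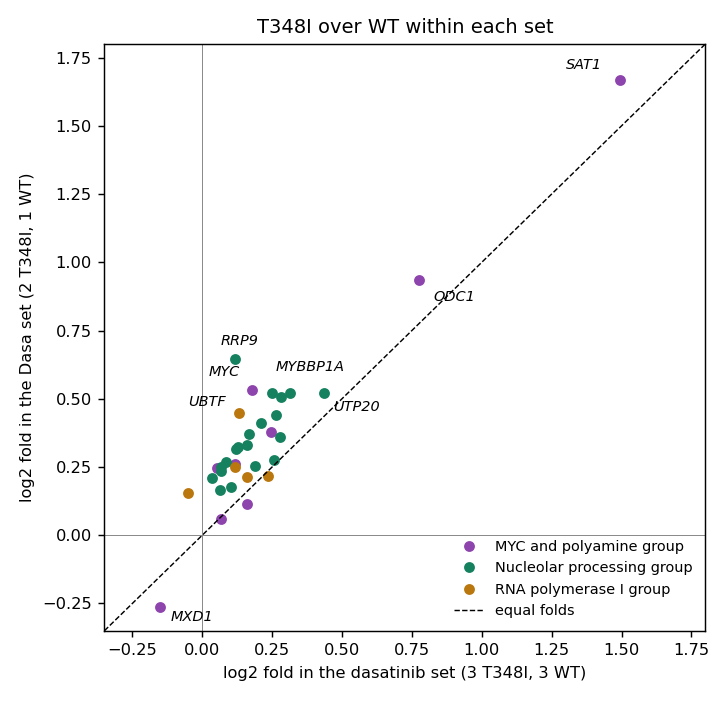
Log2 fold of T348I over WT in the Dasa set (2 T348I samples, 1 WT sample) against that in the dasatinib set (3 T348I and 3 WT samples), 1 point per tested gene, with a line of equal folds. Most points lie above the line, with medians of 0.30 and 0.16, and RRP9, MYC and UBTF are the 3 that passed the interaction test. All folds of the Dasa set share the 1 WT sample.

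The sets differed from each other in many of the genes, in a test adjusted for genotype. Of the 34 genes, 12 were higher and 9 lower in the Dasa set than in the dasatinib set, where 58.6% of all tested genes were called, 29.7% higher and 29.0% lower, so this share is near that of all genes. Higher in the Dasa set were MYBBP1A (log2 difference 0.47), NOP56 (0.45), ODC1 (0.43), UTP20 (0.41), UBTF (0.41) and POLR1A (0.35). Lower were RRN3 (-0.27), MAX (-0.26), NPM1 (-0.23), WDR12 (-0.22), NOLC1 (-0.20) and FBL (-0.20). Such a difference need not hold in both genotypes. SAT1 (0.14) and BOP1 (0.17) were also called higher in the Dasa set, although their WT samples were alike across sets. For MYC the sets differed in opposite directions by genotype: the T348I samples were higher in the Dasa set (105 and 107 CPM) than in the dasatinib set (92.4 to 96.9 CPM), and the WT sample of the Dasa set (73.4 CPM) was lower than those of the dasatinib set (81.9 to 84.9 CPM).

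Over the 9 samples the 5 tested genes whose log2 CPM ranked most like that of MYC were PLK2 (Spearman rho 1), IRAK1, CAPN1, PTBP1 and ASCC2 (0.98 each), and 258 genes had a rho above 0.9. The genes most like ODC1 were KRT81, ZNF710, IER5L and SLIRP (rho 1 each) and TOR4A (0.98), and 339 genes had a rho above 0.9. These are descriptions over 9 samples that share group and set.

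Other genes of the same pathways were read from lists that leave out the 35 genes and were chosen with earlier results of these data known. Over all tested genes 20.7% were called higher and 21.8% lower, the shares that stand beside each count of the wider lists. In the MYC network, 1 of 9 tested genes rose, 7 fell and MGA was not called, with a median log2 fold of -0.29. MXD4, a relative of MXD1, averaged 19.7 ± 1.01 CPM in T348I samples and 37.0 ± 2.74 CPM in WT samples (SD, n = 5 and 4), a log2 fold of -0.91 (edgeR adjusted p = 6.25e-10). MYCL, the third MYC paralog, was low in both groups, at 3.20 ± 0.470 and 4.66 ± 0.264 CPM, and fell by 0.52, or by 0.40 and without a call when WT Dasa replicate 1 was left out. MLX, the dimer partner of the glucose-responsive factors MLXIP and MLXIPL, rose by 0.54, at 106 ± 8.04 CPM in T348I samples and 71.7 ± 2.61 CPM in WT samples. MLXIPL fell by 0.77, a value that was -0.37 without WT Dasa replicate 1, and MXD3, MLXIP, MNT and MXI1 fell as well (-0.45 to -0.18). MXD3 shares exon sequence with RAB24, and MXI1 was not called without WT Dasa replicate 1.

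Of the other polyamine genes, 6 of 13 tested rose, 4 fell and 3 were not called, with a median log2 fold of 0.16, which was 0.09 without WT dasatinib replicate 1. SMOX, spermine oxidase, which turns spermine back to spermidine, averaged 47.6 ± 13.6 CPM in T348I samples and 11.6 ± 0.321 CPM in WT samples (SD, n = 5 and 4), a log2 fold of 1.92 (SE 0.0996, edgeR adjusted p = 9.23e-12), which exceeds the fold of SAT1. MAT2A, which makes S-adenosylmethionine, rose by 0.31. The relative of SAT1 called SAT2 went the other way, at 43.7 ± 6.41 CPM in T348I samples and 62.7 ± 3.47 CPM in WT samples, a log2 fold of -0.48 (edgeR adjusted p = 4.81e-07). PAOX, the oxidase that acts on acetylated polyamines, fell by 0.39 at 3.96 ± 0.833 CPM in T348I samples and 5.50 ± 1.05 CPM in WT samples (edgeR adjusted p = 0.0335). The call of PAOX was lost without any of T348I dasatinib replicates 1 and 3, T348I Dasa replicate 1 and WT dasatinib replicates 1, 2 and 3.

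The wider ribosome lists had no gene called lower. Of 43 small subunit processome and 40S assembly genes, 26 rose and 17 were not called, with a median log2 fold of 0.17. RCL1 (0.58), UTP25 (0.34), HEATR1 (0.32) and KRR1 (0.32) had the largest rises. The count was 18 without WT Dasa replicate 1. Of 40 large subunit assembly genes, 31 rose and 9 were not called, with a median of 0.19: EBNA1BP2 rose by 0.44, BRIX1 by 0.41 and MRTO4 by 0.39. PPAN had a log2 fold of 0.55 but stood at 2.18 ± 0.828 CPM in T348I samples and 1.37 ± 0.286 CPM in WT samples, shares exons with a PPAN-P2RY11 readthrough gene, and was not called without WT Dasa replicate 1 (0.34), WT dasatinib replicate 1 or 3, or T348I Dasa replicate 1 or 2.

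Of 14 genes of box C/D and H/ACA particles and their assembly, 9 rose and 5 were not called, with a median of 0.24. TCOF1, treacle, which works with UBTF at ribosomal DNA, averaged 125 ± 14.0 CPM in T348I samples and 89.1 ± 2.71 CPM in WT samples (SD, n = 5 and 4), and rose by 0.45 (edgeR adjusted p = 8.78e-08). The H/ACA proteins NOP10 and GAR1 rose by 0.45 and 0.34, and the assembly ATPase RUVBL1 by 0.36. Of 14 tested further RNA polymerase I subunits and factors, 9 rose and 5 were not called, with a median of 0.20. TAF1A, part of the promoter selectivity factor, rose by 0.50, the subunits POLR1G and POLR1E by 0.49 and 0.44, and the termination factor gene TTF1 by 0.32. POLR1G rose by 0.28 without WT Dasa replicate 1.

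Of 19 tested MYC targets outside ribosome biogenesis, 11 rose, 1 fell and 7 were not called, with a median log2 fold of 0.14, within the middle 50% of all tested genes. NME1, a nucleoside diphosphate kinase gene that shares exons with the readthrough gene NME1-NME2, rose by 0.48, LDHA, lactate dehydrogenase, by 0.36, the growth regulator gene PA2G4 by 0.33 and RCC1, a nuclear transport factor gene, by 0.29. TFRC, the transferrin receptor gene and a MYC target in other cells, was the 1 that fell, by 0.29 on the log2 scale. Over all wider lists 93 of 152 tested genes rose and 12 fell, beside 20.7% and 21.8% of all tested genes. Of these 12 lower genes, 11 belong to the MYC network and the polyamine list.

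**Figure D5:**
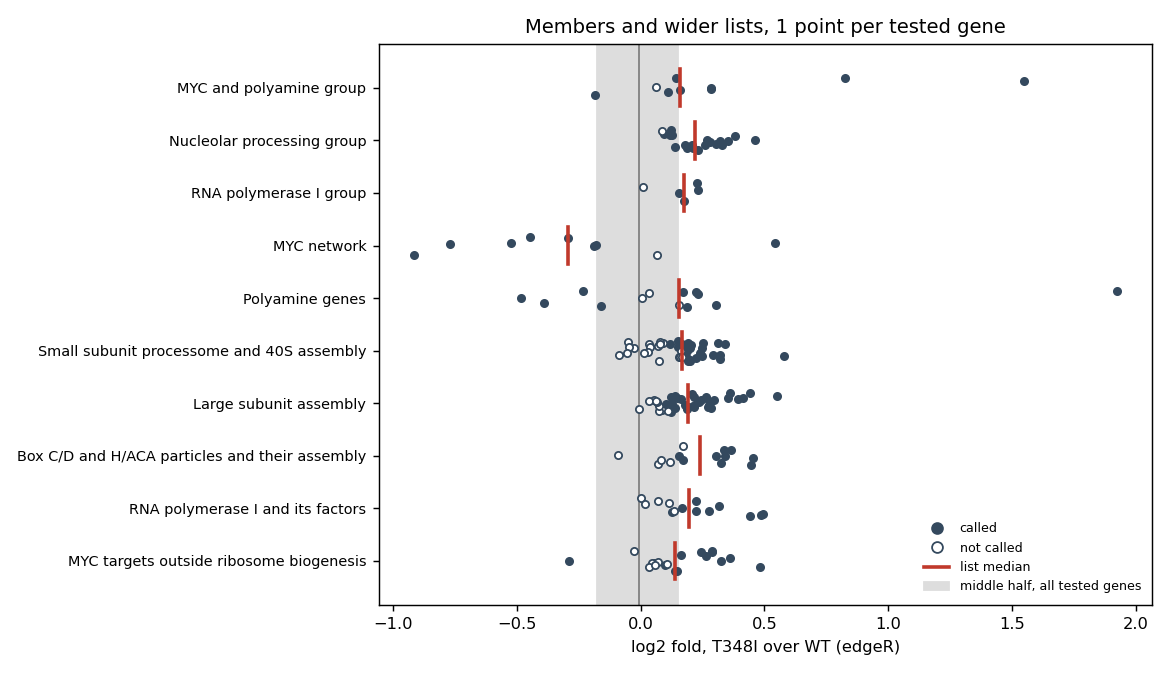
Log2 fold of T348I over WT for the tested genes of each list, 1 point per gene, filled where called, with the list median as a red bar and the middle 50% of all tested genes (-0.18 to 0.15) in grey. The ribosome lists lie to the right with medians of 0.17 to 0.24, the MYC network lies to the left at -0.29, and SMOX (1.92), SAT1 (1.55) and ODC1 (0.83) have the highest values.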

How the data were processed

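Each sample has a deposited file of raw read counts per gene in the layout of STAR, made by the authors. The submitters' processing notes name STAR 2.5.1b, Trimmomatic 0.35, CASAVA 1.8.2 and the build GRCh38. Which annotation release was counted on is not given in the sources used here. Column 4, the sense strand of a stranded polyA kit per the labels' protocols, was used, since genes held 5.48% to 5.91% as many reads on the opposite strand. Rows that name no gene (22.2% to 29.8% of reads, multimapped reads included) were left out. Pseudogenes named after them exist in GENCODE 29 for further genes reported here, among them LDHA (6), PA2G4 (5), NOP56 (3), NCL (2) and PES1 (2). NOP56 also shares exon sequence on the same strand with 6 small RNA genes. Symbols came from a table of gene names (57392 of 58219 identifiers), and positions and exon lengths from GENCODE 29 where the version number was the same, which it was not for MYC and POLR1C.

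For the test, edgeR 4.0.16 under R 4.3.3 (filterByExpr, TMM, quasi-likelihood F-test) took all 9 samples with terms for set and for group. Adjusted p-values are Benjamini-Hochberg values over 14617 genes with a threshold of 0.05. The interaction of both terms was tested in another fit. Standard errors come from the fold and its F statistic. Alternatives were upper quartile and RLE scaling, no filter on low counts, DESeq2 1.42.0, no set term, a replicate block, the dasatinib set alone, counts without strand, mitochondrial transcripts left out, a 1.2-fold minimum, and leaving out each sample. The edgeR script was tested on simulated data. The simulation held no difference between sets, so it does not show how well folds as small as most of those above are found. Replicates of a set were no duplicates (chi-square per gene 1.44 to 2.88).

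Every one of the 35 genes is named. Values per sample are given for MYC, MYCN, MAX, MXD1, the RNA polymerase I genes and genes called with a log2 fold of at least 0.3 in size, and each wider list is given by counts and the up to 4 called genes with the largest folds; others named in the MYC network, and TFRC, were named after their values were seen. The genes and lists were chosen with earlier results of these data known. Promoter windows are those of RefSeq on GRCh38.p14.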

Additional observations from a re-analysis of the deposited data

Results flagged for a closer look

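In 5 of the 68 groups of samples examined for the 34 genes, a sample stood apart from the others of its group. Each time this sample was the WT sample of the Dasa set, the only WT sample there. It was the highest WT sample for ODC1 (742.9 CPM) and UTP20 (110.8 CPM) and the lowest for WDR12 (80.72 CPM), BYSL (29.94 CPM) and RRN3 (56.47 CPM). Chance flags about 1 in 20 groups of alike samples. That rate does not apply here, since each group pools both sets, between which 58.6% of all tested genes differed.

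The log2 fold in the Dasa set differed from that in the dasatinib set, by the edgeR interaction test, in 12 of the genes named. Over all tested genes 7.33% were called by this test. The wider genes were named for the size of their folds over all 9 samples, the Dasa set included, so 12 is not an unselected count. Without that choice the test called 3 of the 34 genes and 26 of the 152 tested genes of the wider lists. Among the 35 genes the difference was 0.356 for MYC, 0.527 for RRP9 and 0.317 for UBTF. Among the wider lists it was 0.745 for SMOX (edgeR interaction adjusted p = 0.00108), 0.662 for POLR1G (9.99e-06), 0.416 for EBNA1BP2 (0.000622), 0.332 for POLR1E (0.0161), 0.281 for MRTO4 (0.0120), 0.266 for MLX (0.0370), 0.262 for HEATR1 (0.0123) and 0.197 for LDHA (0.0492), each a larger fold in the Dasa set. MLXIPL had a difference of -0.893 (0.00058), a deeper fall in the Dasa set. The Dasa set has 1 WT sample, which these tests take to vary like the others, so what that sample and the T348I effect each contribute cannot be told apart.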

How the results depend on the processing

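SAT1, ODC1 and UTP20 kept their calls and OAZ1 stayed uncalled under all 19 alternatives, and RLE scaling and leaving out mitochondrial transcripts changed no call among the 34 genes. A model without the set term called 1234 of all genes higher and 1116 lower, 13 and 0 among the 34, 4 and 0 in the MYC and polyamine group, 9 higher in the nucleolar group and 0 in the RNA polymerase I group. With a 1.2-fold minimum these counts were 879 and 850, 4 and 0, 2 and 0, 2, and 0. The 1 lower call, MXD1, was absent (0 called lower among the 34, and 0 in its group) with DESeq2, with the replicate block and in the dasatinib set alone, and leaving out 1 sample at a time gave 0 to 1. DESeq2 called 26 of the 34 higher, beside 2570 of all genes higher and 2502 lower, and also lost MAX, NOP14, WDR12 and PES1. Without the filter on low counts the calls of MAX, SRM, NOP14, WDR12 and PES1 were lost. The interaction test of DESeq2 called 247 genes larger and 263 smaller in the Dasa set, against 459 and 612 by edgeR. The fold of RRN3 changed sign with upper quartile scaling (-0.0012), without the set term (-0.034) and in the dasatinib set alone (-0.044), and was -0.044 to 0.031 when 1 sample was left out. The cause was not tested.

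Samples with the same replicate number did not deviate together in the dasatinib set (correlations -0.0077, -0.076 and 0.0033). Deviations from a mean of 3 samples hold count noise, so this does not settle whether the numbers mark pairs. With the replicate block 25 of the 34 genes were called higher and 0 lower, against 2659 and 2713 of all genes, and the calls of MXD1, SRM, NPM1, NOP14, WDR12 and PES1 were lost. Depth limits MYCN, PPAN, PAOX and MYCL, which hold few reads.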
